A study of Mus musculus with 26 samples.

Results

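The members described are 9 genes of regulated secretion that were picked by name from earlier results on these data: *Cadps*, *Cadps2*, *Unc13a*, *Unc13b*, *Unc13c*, *Snap25*, *Vamp2*, *Scg2* and *Chga*. All 9 were found by Ensembl identifier among the 55401 genes of the count tables. All 9 also passed the filter on low counts in every set of libraries. *Cadps* was on the list because it differed between genotypes in every set, so its genotype differences are given as a description, without a test. The question asked of the other 8 was whether the paralog of *Cadps* and its partners moved with it.

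Poly(A) RNA was sequenced from mouse L4 to L6 dorsal root ganglia (DRG, which hold the cell bodies of the sensory neurons next to the spinal cord) and from semi-purified DRG neurons, in 26 libraries that form 10 groups. Conditional knockout (cKO) mice were *Ahr* fl/fl with Thy1-CreERT2/EYFP, a tamoxifen-inducible Cre recombinase with a fluorescent protein under the neuronal *Thy1* promoter. Control mice carried floxed *Ahr* without that transgene, as fl/+ or fl/fl, so that loss of the aryl hydrocarbon receptor (AhR) and presence of the transgene cannot be told apart. The 5 settings, each with a control and a cKO group, were as follows. Naive ganglia came from 3 mice per genotype given 100 mg/kg tamoxifen daily for 5 days at 28 weeks of age and dissected 5 weeks later. Injured ganglia came from 3 mice per genotype on the same schedule whose sciatic nerve had been crushed 1 day earlier. Neurons came from 3 mice per genotype and were taken 24 hours after seeding. Sham ganglia came from 2 mice per genotype 1 day after sham surgery, with the ipsilateral (operated) and contralateral ganglia of each mouse as separate libraries. P-values therefore measure the spread between mice, except that both sides of a sham mouse share an animal. For the neurons and the sham mice the labels give neither tamoxifen nor age. Naive and injured control mice 1 and 2 and sham control mouse 1 were heterozygous for the floxed allele, and the other controls were fl/fl.

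Neurons secrete from small synaptic vesicles and from dense-core vesicles, which store neuropeptides, granins and growth factors. A vesicle docks at the membrane, is made ready for fusion by priming proteins, and fuses when calcium enters and the vesicle and membrane SNARE proteins zip together. *Cadps* (CAPS1) and its paralog *Cadps2* (CAPS2) encode priming factors best known for dense-core vesicles. The *Unc13* genes encode the Munc13 priming factors. *Snap25* and *Vamp2* encode a membrane and a vesicle SNARE. *Scg2* (secretogranin II) and *Chga* (chromogranin A) encode granins, the bulk cargo of dense-core vesicles. Sensory neurons of the DRG release peptides by this route.

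*Cadps* (ENSMUSG00000054423.14) lies on the minus strand of chromosome 14 from 12372563 to 12823079 in GRCm38, a span of 450517 bases with 15054 bases of exon. *Cadps2* (ENSMUSG00000017978.18) lies on the minus strand of chromosome 6 from 23262773 to 23839421. AhR binds DNA at a core written GCGTG, so the promoters of the 2 paralogs are shown with each copy of that core, on either strand, in capitals (CACGC is the reverse strand). The sequences are the 250 bases before the RefSeq start site in GRCm38.p6, on the strand of the gene, chr14:12823080-12823329 for *Cadps* and chr6:23839422-23839671 for *Cadps2*.
Cadps: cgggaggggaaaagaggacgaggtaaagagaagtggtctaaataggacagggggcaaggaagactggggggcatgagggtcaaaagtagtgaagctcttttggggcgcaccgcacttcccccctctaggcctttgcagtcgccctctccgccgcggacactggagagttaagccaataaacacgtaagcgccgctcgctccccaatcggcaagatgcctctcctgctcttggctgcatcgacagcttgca
Cadps2: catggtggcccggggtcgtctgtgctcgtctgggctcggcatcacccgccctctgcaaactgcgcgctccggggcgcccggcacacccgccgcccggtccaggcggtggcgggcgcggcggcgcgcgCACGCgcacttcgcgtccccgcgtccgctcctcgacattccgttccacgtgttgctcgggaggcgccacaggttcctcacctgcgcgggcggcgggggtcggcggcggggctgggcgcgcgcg
The *Cadps* window holds no copy of the core. The *Cadps2* window holds 1 copy on the reverse strand, 123 bases before the start. In windows of 300 bases that reach past the start site, 5 of the 7 members with an entry in the RefSeq table held the core: *Cadps2* and *Scg2* had 1 copy each, *Unc13a* and *Unc13b* 2 each, and *Chga* 4, the middle 2 sharing a base. *Cadps* and *Unc13c* had 0, and *Snap25* and *Vamp2* have no entry. Of 32851 promoters of that length, 32.4% held the core. A match of letters is a description and shows no binding.

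Total counts were 20169388 to 23540375 per library in naive and injured ganglia, 25299938 to 88180611 in neurons and 39306414 to 58751270 in sham ganglia. Levels are given in CPM, counts brought to a common library total and adjusted by edgeR's TMM factors within a set. Neuronal markers summed to 3373 to 4014 CPM in naive and injured ganglia, 5599 to 6129 CPM in sham ganglia and 3140 to 4116 CPM in cultured neurons, and no gene of the 6 marker lists was at 0 in any group. In the cultures, Schwann cell markers were at 586.9 to 744.4 CPM against 2774 to 5252 CPM in ganglia, while endothelial markers were at 941.8 to 1453 CPM against 68.96 to 185.5 CPM. *Thy1*, whose promoter drives the transgene, was higher in every cKO library than in every control library of the same setting. The gene-level count of *Ahr* was not lower in cKO (log2 fold changes of -0.05 to 0.17, none called) and does not check the labels. In 2 of the 26 libraries, 1 injured control and 1 injured cKO, sex-linked transcripts did not match the labelled sex, and by transcripts 0 of 3 injured control and 2 of 3 injured cKO mice were male. Labels and transcripts gave female for each naive and neuron library and male for each sham library.

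*Cadps* was lower in the cKO libraries of all 5 settings, at 0.487 to 0.586 of the control level. In naive ganglia it was at 331.7, 407.8 and 366.9 CPM in control and 217.2, 190.4 and 225.2 CPM in cKO (log2 fold change -0.81, SE 0.0852). In ganglia after nerve crush it was at 371.9, 429.9 and 387 CPM in control and 229.7, 218.2 and 224 CPM in cKO (-0.82, SE 0.0852). The lowest control library stood above the highest cKO library in both. In cultured neurons *Cadps* was at 250.1, 283.7 and 348.6 CPM in control and 175.9, 160.3 and 180.9 CPM in cKO (-0.77, SE 0.121). On the operated side of sham mice the values were 578.6 and 494.3 CPM in control and 269 and 254.1 CPM in cKO (-1.04, SE 0.0801). On the other side it was at 550 and 538.3 CPM against 284.8 and 282.4 CPM (-0.94, SE 0.08). No control library overlapped a cKO library in any setting, and the sham sides share their mice. Genes whose groups did not overlap with cKO lower made up 5.32% of genes tested in naive ganglia, 4.56% in injured ganglia, 7.69% in neurons, 15.7% on the operated and 19.1% on the other side of sham mice. In bulk RNA, fewer cells of a type and less RNA per cell cannot be told apart.

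**Figure D1:**
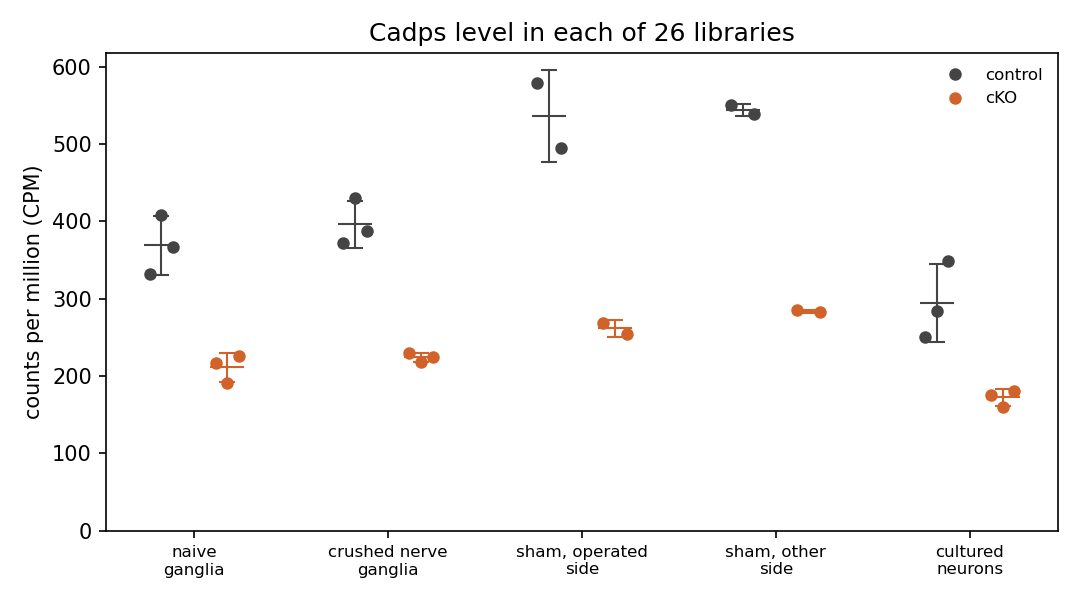
Level of *Cadps* in CPM (linear axis from 0) in each library; points are libraries, horizontal bars the group mean and whiskers the SD (n = 3, or 2 for sham). In every setting all cKO points lie under all control points, with cKO means from 172.4 to 283.6 CPM and control means from 294.1 to 544.1 CPM.

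Over 63 alternative fits of the 5 settings the *Cadps* difference ran from -1.16 to -0.63. It was -0.82 in injured ganglia without the 2 libraries of mismatched sex and -0.79 with sex by transcripts as a covariate. By transcripts, injured cKO was the only naive or injured group with males. The covariate estimate thus compared its only female library with the controls. Among naive and injured controls, the single fl/fl mouse (366.9 CPM naive, 387 CPM injured) stood between both fl/+ mice. In sham mice the fl/fl control was the lower of the pair on both sides. The part of the second floxed allele was not tested.

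By group mean, *Cadps* was highest in the sham controls (544.1 CPM contralateral, 536.5 CPM ipsilateral), whose ranges overlap. Injured control (396.3 CPM) and naive control (368.8 CPM) followed, again with overlapping ranges, and naive control also overlapped neuron control, the next group. Neuron control (294.1 CPM) and contralateral sham cKO (283.6 CPM) overlapped and changed places when all libraries were scaled together (294.6 and 308.4 CPM). Ipsilateral sham cKO (261.5 CPM), injured cKO (224 CPM), naive cKO (210.9 CPM) and neuron cKO (172.4 CPM) came last, and only injured and naive cKO overlapped among these. The 3 sets were normalized separately, so levels across sets are a description, and for the sham set, the only all-male one, set and sex cannot be told apart.

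The other 8 members did not follow *Cadps*. None passed an adjusted p of 0.05 in any of the 5 genotype comparisons (0 of 40 estimates by edgeR's quasi-likelihood test, of which 3 had an unadjusted p under 0.05: *Scg2* and *Chga* in neurons and *Scg2* on the operated side). The share of all genes called was 0.00941% in naive and in injured ganglia, 0% in neurons, 0.00451% on the operated and 0% on the other side of sham mice, so few calls were made on any gene. Unadjusted p-values under 0.05 were held by 5.79%, 2.72%, 8.0%, 7.59% and 5.23% of genes in the same order. The estimates ran from -0.17 to 0.51, and the lowest lower bound of their 95% intervals was -0.48 (*Unc13c* in neurons), which is above the smallest *Cadps* difference of -0.77. In naive ganglia all 8 estimates lay between 0.00 and 0.17, against 50.1% of all genes with an estimate above 0. In injured ganglia they lay between -0.08 and 0.10.

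**Figure D2:**
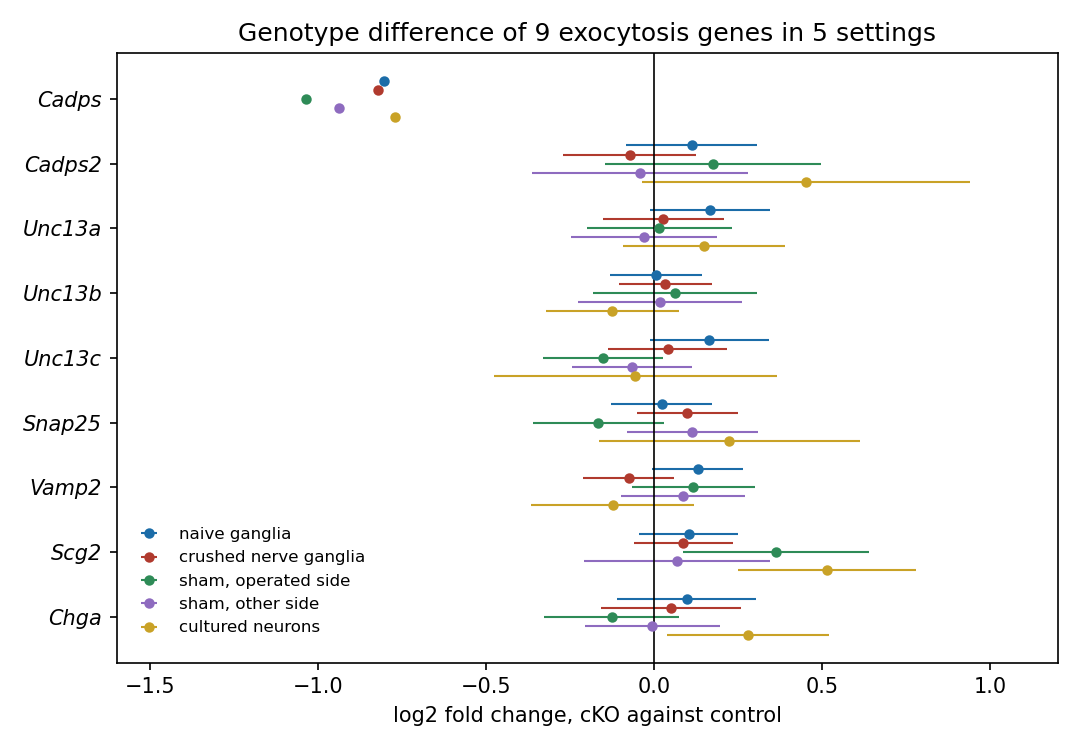
Log2 fold change of cKO against control for the 9 members in 5 settings (colours); bars are 95% intervals from edgeR, left out for *Cadps*, which was chosen on these differences. The 5 *Cadps* points lie between -1.04 and -0.77, and the points of the other 8 genes between -0.17 and 0.51.

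The paralog *Cadps2* was the rarer of the pair per length. In naive controls *Cadps2* was at 4.03 and *Cadps* at 24.5 CPM per kilobase of exon, and the order was the same per kilobase of gene span (0.0669 and 0.819), the length behind the deposited FPKM. *Cadps2* was at 36.22, 43.49 and 36.03 CPM in naive control and 45, 36.7 and 43.28 CPM in naive cKO (log2 fold change 0.11, 95% interval -0.08 to 0.31, adjusted p 0.771, edgeR). After crush it was at 36.44, 38.93 and 35.87 CPM in control and 37.19, 33.48 and 35.03 CPM in cKO (-0.07, -0.27 to 0.12, adjusted p 1). Groups overlapped in both conditions. In neurons it was at 30.84, 40.33 and 61.77 CPM in control and 63.31, 61.57 and 57.73 CPM in cKO (0.45, -0.04 to 0.94, adjusted p 0.634). The spread there lay in the controls, whose highest library stood within the cKO range, and the neuron estimate ran from 0.26 to 0.76 as single libraries were left out. The sham estimates were 0.17 (-0.15 to 0.50; -0.01 to 0.38 with single libraries left out) on the operated and -0.04 (-0.36 to 0.28) on the other side. Its highest level in any library was 63.31 CPM, below the lowest *Cadps* level in any library (160.3 CPM).

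The Munc13 genes act at the same priming step. *Unc13a*, the main form of neuronal synapses, was at 109.4, 138.6 and 125.4 CPM in naive control and 144.9, 129.4 and 144.5 CPM in naive cKO (0.17, 95% interval -0.01 to 0.34, adjusted p 0.754, edgeR). Its other 4 estimates were -0.03 to 0.15. The overlapping gene *Colgalt1* held counts equal to 54.6% of those of *Unc13a*, and how shared reads were assigned is not given in the sources used here, so the *Unc13a* values are uncertain. *Unc13b* was at 23.82, 23.21 and 23.8 CPM in naive control and 22.57, 26.02 and 22.47 CPM in naive cKO (0.0045, -0.13 to 0.14), and its estimates over all settings were -0.12 to 0.06. *Unc13c* was at 54.2, 56 and 61.78 CPM in naive control and 65.62, 60.98 and 66.1 CPM in naive cKO (0.16, -0.01 to 0.34, adjusted p 0.754). Its estimate was below 0 in neurons and on both sham sides (-0.15 to -0.06). Per kilobase of exon, the 3 paralogs stood at 9.86 (*Unc13a*), 6.52 (*Unc13c*) and 1.04 CPM (*Unc13b*) in naive controls.

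The SNARE genes were abundant and their genotype estimates small in ganglia. *Snap25* was at 1019, 1209 and 1111 CPM in naive control and 1163, 1049 and 1179 CPM in naive cKO (0.02, -0.13 to 0.17, adjusted p 0.947, edgeR). After crush all cKO libraries (1104, 1166 and 1104 CPM) stood above all controls (1048, 1015 and 1089 CPM), with an estimate of 0.10 (-0.05 to 0.25, adjusted p 1), as did 4.16% of all genes. On the operated side of sham mice both cKO libraries (789.9 and 795 CPM) stood below both controls (838.8 and 940.1 CPM), with an estimate of -0.17 (-0.36 to 0.03, adjusted p 0.74), a pattern shared by the 15.7% of genes given above. Its estimates were 0.22 (-0.17 to 0.61; 0.10 to 0.48 with single libraries left out) in neurons and 0.11 (-0.08 to 0.31) on the other sham side. *Snap25* thus had estimates above 0 in 4 of 5 settings and below 0 on the operated sham side. *Vamp2* was at 502.3, 574.3 and 531.5 CPM in naive control and 610.9, 559 and 588 CPM in naive cKO (0.13, -0.01 to 0.26, adjusted p 0.754). In neurons its estimate was -0.12 (-0.37 to 0.12, adjusted p 0.74).

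The granins were the members whose neuron groups did not overlap with cKO higher. *Scg2* was at 176.1, 200.6 and 203.4 CPM in control and 245.1, 324.3 and 259.1 CPM in cKO cultures, 1.43-fold higher, with every cKO library above every control. The log2 fold change was 0.51 (95% interval 0.25 to 0.78), but the adjusted p was 0.404 by edgeR, which called no gene in neurons. DESeq2, which called 0.783% of genes there, gave 0.52 with an adjusted p of 0.0102. On the operated side of sham mice *Scg2* was at 455.3 and 461.1 CPM in control and 667.3 and 509.5 CPM in cKO (0.36, 0.08 to 0.64, adjusted p 0.557), and without the filter on low counts it was called there (0.34, adjusted p 0.0364), in a fit that called 1.79% of genes. The estimate of 0.36 rested on the higher cKO library: it was 0.14 without cKO 1 (adjusted p 0.999) and 0.52 without cKO 2 (adjusted p 0.0775). With 1 cKO library left, these fits take the spread from the other groups and assume that the lone library varies like them. On the same side 6 of 6 macrophage (median 0.34) and 4 of 4 fibroblast markers (0.40) had estimates above 0, and 6 of 6 Schwann cell (-0.18) and 4 of 5 endothelial markers (-0.30) below 0, none called; their part in the sham values was not tested. Of all genes, 17.6% had both cKO libraries above both controls on that side. On the other side the estimate was 0.07, and in naive and injured ganglia 0.10 and 0.09. *Scg2* was the only 1 of the 9 members whose estimate was above 0 in all 5 settings. *Chga* was at 81.15, 91.83 and 109.6 CPM in control and 116.1, 111.4 and 115.9 CPM in cKO cultures (0.28, 0.04 to 0.52, adjusted p 0.591), again without overlap. Its estimates elsewhere were -0.13 to 0.10. Groups without overlap and with cKO higher made up 7.54% of all genes in neurons. The summed neuronal markers were at 3140 to 3449 CPM in the cKO cultures against 3188 to 4116 CPM, and 4 of 8 had estimates above 0. All 5 endothelial markers (-0.35 to -0.16) and all 6 Schwann cell markers (-0.37 to -0.02) had estimates below 0 there. Estimates above 0 were held by 4 of 6 macrophage (median 0.18), 3 of 4 fibroblast (0.20) and 3 of 6 satellite glia markers (0.01). None of these markers was called. The part of these cells in the granin values was not tested.

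**Figure D3:**
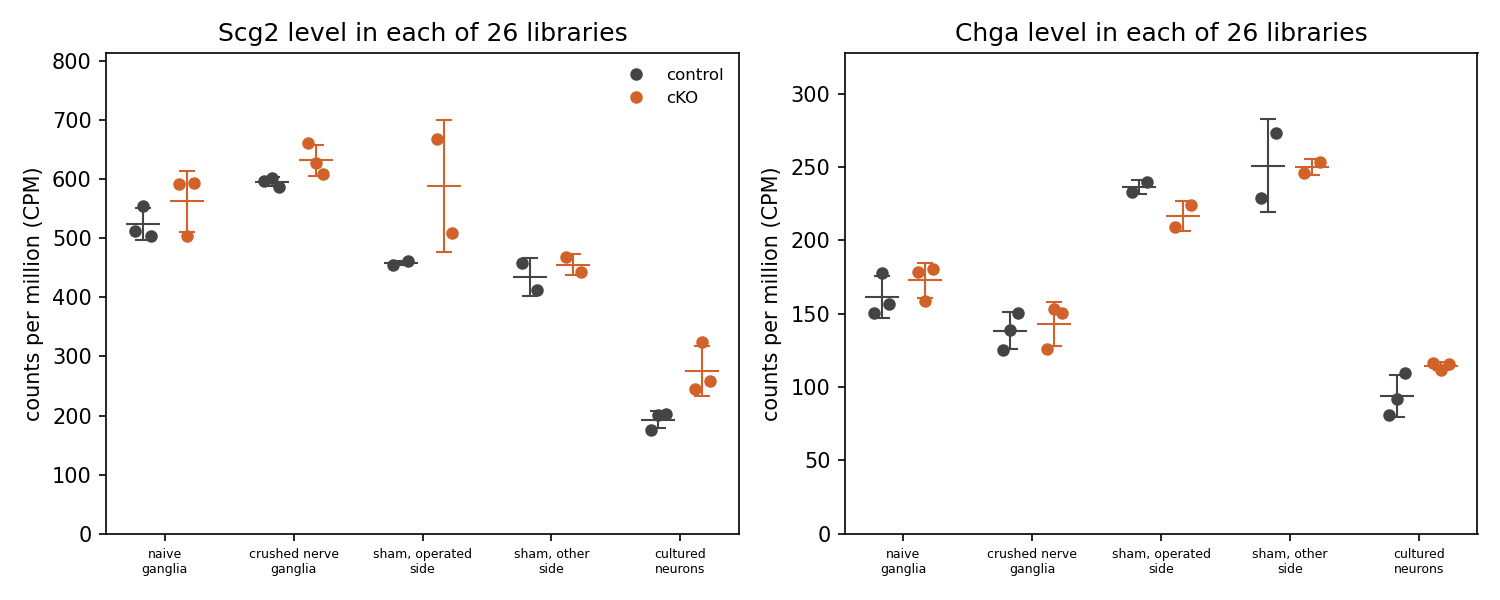
Levels of *Scg2* (left) and *Chga* (right) in CPM (linear axes from 0) in each library, with group means (horizontal bars) and SD (whiskers; n = 3, or 2 for sham). In cultured neurons the *Scg2* cKO points (245.1 to 324.3 CPM) all lie above the control points (176.1 to 203.4 CPM), and the same holds for *Chga* by a smaller margin.

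Of 64 further genes of the exocytosis machinery in 5 lists, 63 were tested (*Cplx3* was too low). None was called between genotypes in any of the 5 settings by edgeR. Their median log2 fold change was 0.10 in naive ganglia, where 52 of 63 had an estimate above 0, against a median of 0.0004 over all genes. Estimates above 0 were held by 15 of 16 priming and active zone genes (median 0.11), 11 of 11 dense-core vesicle genes (0.07), 9 of 12 calcium sensors (0.11), 10 of 14 SNARE genes (0.06) and 7 of 10 small synaptic vesicle genes (0.06). In the same libraries 7 of 8 neuronal and 5 of 6 satellite glia markers were above 0, and 12 of 12 Schwann cell and macrophage, 4 of 5 endothelial and 3 of 4 fibroblast markers were below 0, none of them called, and the part of cell makeup was not tested. In the other settings the medians of all 63 genes were 0.03 in injured ganglia, 0.09 in neurons, -0.0003 on the operated and -0.01 on the other side of sham mice. Without the filter on low counts 6 of the genes were called on the operated side of sham mice (*Vamp1*, *Syt2*, *Syt10*, *Doc2b*, *Rab3b* and *Pam*), where that fit called 1.79% of all genes. DESeq2 called 3 there (*Doc2b*, *Rab3b* and *Pam*), against 0.821% of all genes, and *Cplx2* in neurons.

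Nerve crush was then compared with the naive state within each genotype, a contrast that was not used to choose the members. In control mice 1 of 9 members passed the test, where 21.6% of all genes were called, and in cKO mice 0 of 9, where 18.6% were. In cKO mice the crush contrast set 3 female naive mice against 2 males and 1 female by transcripts. The 2 injury comparisons share their libraries with the genotype comparisons of the same mice. Genes called higher made up 12.9% in control and 10.7% in cKO mice, and genes called lower 8.73% and 7.89%. *Cadps* itself differed little with injury, by 0.10 in control (95% interval -0.08 to 0.29, adjusted p 0.429, edgeR) and 0.09 in cKO mice (-0.10 to 0.27, adjusted p 0.546).

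*Vamp2* rose after crush in control mice, from 502.3, 574.3 and 531.5 CPM to 630.4, 638.3 and 614.8 CPM (log2 fold change 0.23, SE 0.0622, adjusted p 0.0211, edgeR). In cKO mice it was at 610.9, 559 and 588 CPM before and 571.7, 579.9 and 634.7 CPM after crush (0.02, adjusted p 0.848). The difference between those effects was -0.20 (95% interval -0.40 to -0.01) with an adjusted p of 1, so a difference between the genotypes was not shown. The call in control mice was lost without single libraries while the *Vamp2* estimate stayed at 0.18 to 0.22: the adjusted p was 0.0713 without naive control 1, 0.0654 without naive control 3, 0.0751 without injured control 1 and 0.0855 without injured control 2. It was 0.0593 without the libraries of mismatched sex (estimate 0.24), 0.053 without the filter (0.22) and 0.0579 with only the compared groups in the fit (0.22).

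The granins leaned in opposite directions after crush without passing the test. *Scg2* went from 512.7, 554.5 and 503.6 CPM to 597.5, 601.7 and 586.8 CPM in control mice (0.19, SE 0.0676, adjusted p 0.0724, edgeR) and from 591, 503.1 and 592.8 CPM to 660.6, 626.8 and 609.2 CPM in cKO mice (0.17, adjusted p 0.109). The cKO estimate was 0.08 without naive cKO 2, the lowest naive cKO library (adjusted p 0.398). All injured libraries were above all naive ones in both genotypes, as were 21.1% of all genes in control and 18.5% in cKO mice. *Chga* went from 150.4, 177.7 and 156.4 CPM to 125.4, 138.8 and 150.7 CPM in control (-0.22, adjusted p 0.118) and from 178.7, 158.6 and 180.6 CPM to 125.9, 153.2 and 150.2 CPM in cKO mice (-0.27, adjusted p 0.0692). DESeq2 called *Scg2* in control (adjusted p 0.0483) and *Chga* in cKO mice (adjusted p 0.0481), in fits that called 19.7% and 15.8% of genes. With sex by transcripts as a covariate the *Chga* estimate in cKO mice was -0.46. Injured cKO was the only naive or injured group with males by transcripts. That estimate thus compared its only female library with the naive cKO libraries. On the operated against the other side of sham mice *Scg2* and *Chga* had the same signs. The estimates were 0.22 (0.13 to 0.29 with single mice left out, adjusted p 0.608, edgeR) and -0.15 (adjusted p 0.649). There 0 of 9 members were called, where 0.00451% of all genes were. This fit, also used for the interaction below, had no term for the mouse, though both sides came from the same animals. The *Scg2* means were 455.3 CPM contralaterally and 588.4 CPM ipsilaterally in cKO mice and 434.6 and 458.2 CPM in control mice, where mouse 1 had 457.4 and 455.3 CPM. The genotype by side interaction of *Scg2* was 0.29 (-0.10 to 0.68, adjusted p 1, edgeR, where 0% of genes were called). In the side contrast 6 of 6 Schwann cell markers had estimates below 0 (median -0.31), none called, and their part was not tested. *Cadps2* and *Unc13a* had estimates of -0.24 (adjusted p 0.0874) and -0.18 (adjusted p 0.169) after crush in cKO mice and of -0.06 and -0.04 in control mice, and the interactions were not called (adjusted p 1 each).

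**Figure D4:**
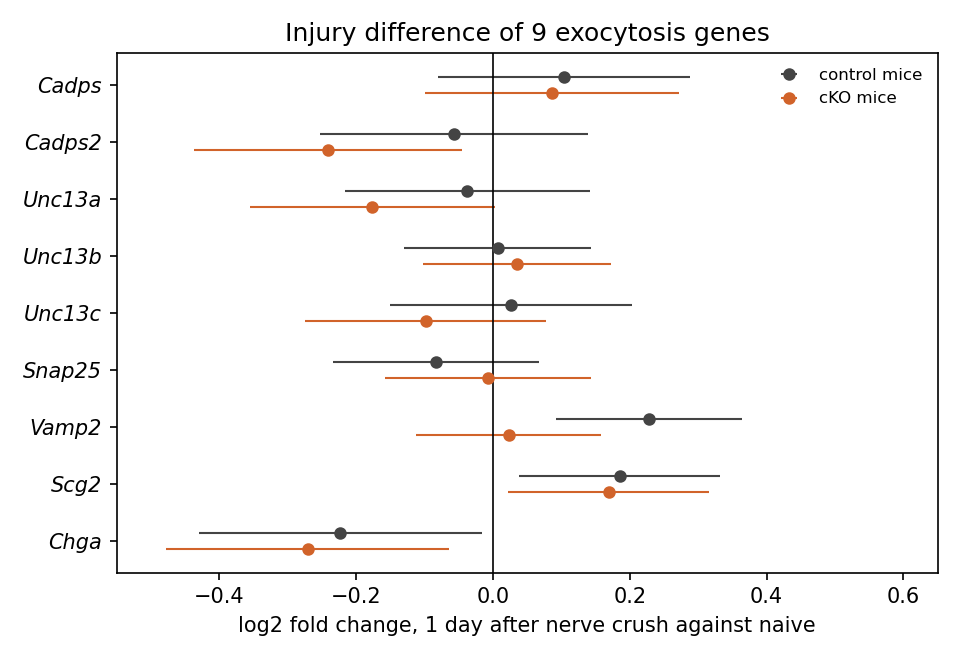
Log2 fold change from naive to 1 day after nerve crush for the 9 members in control and cKO mice, with 95% intervals from edgeR. *Vamp2* in control mice (0.23) was the only estimate past the adjusted threshold, and both *Chga* estimates (-0.22 and -0.27) lie left of 0.

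The other genes of the machinery were called after crush at shares set here beside those of all genes. In control mice 17 of 63 were called (11 higher, 6 lower), against 21.6% of all genes, and in cKO mice 15 of 63 (5 higher, 10 lower), against 18.6%; 11 were called in both, each in the same direction in both, where 14.1% of all genes were called in both. Cell type markers moved in the same contrast: in control mice 2 of 8 neuronal, 3 of 6 satellite glia and 1 of 5 endothelial markers were called, and in cKO mice 3 of 8 neuronal and 1 of 6 satellite glia markers. The neuronal calls went in both directions in either genotype. All 4 fibroblast markers had estimates below 0 in both genotypes (medians -0.28 and -0.41), none called. Their part in the list counts was not tested. Among dense-core vesicle genes, 5 of 11 rose in control and 2 of 11 in cKO mice, where 12.9% and 10.7% of all genes were called higher. *Vgf*, a granin-like peptide precursor, rose from 93.82 ± 8.746 to 470.8 ± 43.22 CPM in control (log2 fold change 2.33, adjusted p 7.82e-07, edgeR) and from 100.7 ± 9.582 to 393.8 ± 72.95 CPM in cKO mice (1.97, adjusted p 2.34e-06; SD, n = 3 each). *Pcsk1*, a prohormone convertase of the same vesicles, rose by 0.78 and 0.84 (adjusted p 0.000619 and 0.000404). Among the calcium sensors, 4 of 12 were called in control (2 higher, 2 lower) and 5 of 12 in cKO mice (2 higher, 3 lower), beside 21.6% and 18.6% of all genes. *Syt4*, a synaptotagmin of dense-core vesicles, rose from 416.1 ± 38.15 to 820.6 ± 45.43 CPM in control (0.98, adjusted p 1.3e-05) and from 475.5 ± 34.65 to 872.9 ± 70.29 CPM in cKO mice (0.88, adjusted p 3.47e-05). *Doc2b* rose at low levels (2.012 ± 0.1181 to 3.961 ± 0.8565 CPM in control), and *Syt3* and *Syt6* fell by 0.33 to 0.48 in either genotype.

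Of 16 priming and active zone genes, 1 rose and 3 fell in control and 1 rose and 6 fell in cKO mice, where 8.73% and 7.89% of all genes were called lower. *Rab27b*, a GTPase of secretory vesicles, fell by 0.57 in control and 0.75 in cKO mice (adjusted p 0.00515 and 0.0011, edgeR). *Rimbp2*, an active zone scaffold, fell by 0.51 and 0.47, and *Rph3a*, an effector of Rab3 and Rab27, by 0.29 and 0.38. *Erc2*, another active zone scaffold, rose by 0.61 and 0.59. In the SNARE list 3 of 14 rose in control mice, where 12.9% of all genes did, and 0 of 14 were called in cKO mice, and of the small synaptic vesicle list *Sv2b* alone was called, lower by 0.39 and 0.30. Whether any list differed between genotypes in its response was not shown, since 0 of 63 interactions were called (adjusted p 1 throughout), as were 0 of all 21261 genes. In cKO mice the count of 15 was 9 without the 2 libraries of mismatched sex, 9 without naive cKO 1 and 8 with sex as a covariate. Calls of *Syt3*, *Syt6*, *Doc2b*, *Rph3a*, *Rimbp2* and *Sv2b* in 1 or both genotypes did not hold in every such fit, while those of *Vgf*, *Pcsk1*, *Syt4*, *Erc2* and *Rab27b* did. For injured cKO mice the fit with sex as a covariate rested on the only library that was female by transcripts.

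The genes around *Cadps* were then examined. Of 32 annotated genes within 1 Mb, 5 were tested in all sets and 0 were called between genotypes. On the side of the 3′ end, *3830406C13Rik* (69.3 kb away) had estimates of -0.07 to 0.24, and *Ptprg* (131 kb away), a receptor phosphatase, of -0.18 to 0.16. *Gm49355* covers the same stretch as *3830406C13Rik* and had nearly the same values. Past the 5′ end, *Synpr* (462 kb away), a small synaptic vesicle protein, had estimates of -0.33 to 0.32. The remaining gene, *Gm48239*, is an antisense transcript inside *Cadps* (12374585 to 12384729, plus strand), with a mean as low as 0.647 CPM in a set. Its estimates followed those of *Cadps*: -0.46 in naive and -0.81 in injured ganglia, -0.84 in neurons, -1.06 and -1.10 in sham mice (adjusted p 0.139 to 1, edgeR). The strand and overlap settings of the counting are not given in the sources used here, so whether *Gm48239* counts are reads from *Cadps* cannot be told. Its counts equalled 2.41% of those of *Cadps*, the most of any overlapping gene.

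**Figure D5:**
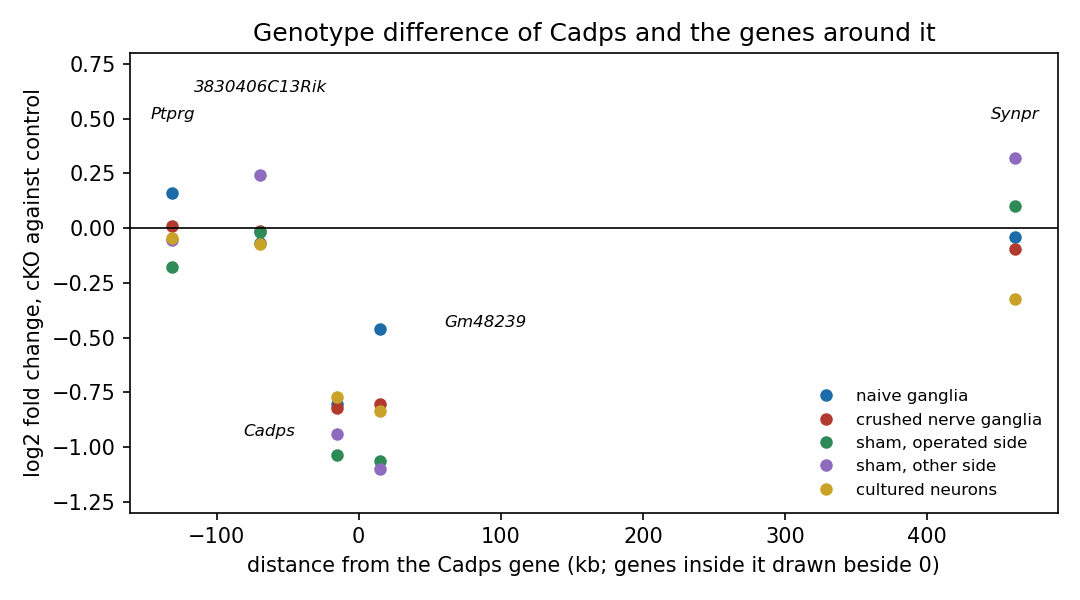
Log2 fold change of cKO against control for *Cadps* and its tested neighbours in 5 settings (colours), by distance from the gene in kb; *Cadps* and *Gm48239*, which lies inside it, are drawn on either side of 0, and *Gm49355* is left out. The outer genes scatter around 0 (-0.33 to 0.32), and both genes at 0 lie between -1.10 and -0.46.

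Likeness to *Cadps* was measured over the 26 libraries, with the setting means removed, among the 15993 genes with a mean of at least 1 CPM in every set, which leaves out *Gm48239*. The most alike were *Smpd4* (Pearson r 0.66), *Hspa14* (0.64), *AC154766.4* (0.63), *Slc7a6os* (0.63) and *Aifm1* (0.62). Their own genotype differences were far smaller, for example -0.18 to -0.09 for *Smpd4*. The least alike was *Thy1* (r -0.84), which the transgene's promoter comes from, then *Rasef* and *Gm16675* (-0.66 each). Among the members, *Scg2* had r -0.57 (rank 15966 of 15992), and the other 7 had -0.16 to 0.15. These correlations describe libraries that share genotype and normalization and carry no p.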

How the data were processed

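The deposited counts are whole numbers per gene in 2 tables, with 1 column per labelled library. Per the submitters' processing notes, Trim Galore, HISAT2 and featureCounts were used with build mm10; versions and settings are not given in the sources used here. The authors also deposited FPKM: 99.27% of 745464 values equalled the count over library total and gene span, introns included, within 0.1%, so counting over whole genes is inferred and levels per exon length are approximate. FPKM was used only for that check. Identifiers were matched to GENCODE M21 (55141 of 55401, 99.53%, with a symbol).

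The main test was edgeR 4.0.16 in R 4.3.3 (quasi-likelihood, filterByExpr with minimum count 10 and minimum total 15, TMM, 1 mean per group), fitted on 12 naive and injured, 6 neuron and 8 sham libraries. It tested 21261, 23295 and 22160 genes, with a biological coefficient of variation of 0.0986, 0.131 and 0.155. P-values are two-sided and Benjamini-Hochberg adjusted over all genes of a comparison, with 0.05 as threshold; intervals are 95%. The test was tried on simulated counts first. Likeness was Pearson's r of log2 CPM (prior count 2).

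The members and gene lists were chosen with earlier results of these data known. Named were the 9 members, *Ahr* and *Thy1*, up to 4 genes per list called after injury in both genotypes, the genes next to *Cadps*, and the 5 most and 3 least like it. Genes called only in an alternative are named after their values were seen.

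The labels number the mice. The sides of a sham mouse are paired by the animal; their deviations correlated at -0.1588 in cKO and 0.2291 in control mice. Alternatives were DESeq2 1.42.0, RLE factors, other filters, a threshold of 0.1, single libraries left out, a replicate block, sex as covariate and fits of the compared groups only. Chosen after seeing the data were fits without the 2 libraries of mismatched sex, crossed sides of the cKO sham mice, and all alternatives for the lists.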

Additional observations from a re-analysis of the deposited data

Results flagged for a closer look

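*Snap25* and *Chga* were flagged because every cKO library lay on one side of the controls in 1 setting and on the opposite side in another. This occurred in 2 of 90 pairs of settings over the 9 members. The share of all genes with such a pattern is not given, and the difference between settings was not tested. For *Snap25* the log2 fold change was 0.10 in injured ganglia and -0.17 on the operated side of sham mice (0.07 to 0.12 and -0.25 to -0.10 with single libraries left out). For *Chga* it was 0.28 in cultured neurons and -0.13 on the operated side of sham mice (0.19 to 0.40 and -0.20 to -0.09 likewise). None of these values passed the adjusted threshold, and groups without overlap and with cKO lower made up 15.7% of all genes on the operated side of sham mice, where each group holds 2 libraries. Those with cKO higher made up 4.16% in injured ganglia and 7.54% in neurons. No group holds 4 or more libraries, so single libraries were not tested as outliers.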

How the results depend on the processing

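Of 270 alternative counts of called members or list genes, 243 stayed within 1.5 times the count given. For members after injury in control mice (1), the count was 0 without the filter, 2 at an adjusted p under 0.1 and by DESeq2 (*Vamp2*, *Scg2*), 0 with only the compared groups, 0 without the libraries of mismatched sex, and 0 to 1 with single libraries left out. In cKO mice (0) it was 2 at the threshold of 0.1 (*Cadps2*, *Chga*), 1 by DESeq2 and 1 with sex as covariate (*Chga* both times), and 0 to 2 with single libraries left out, 2 being without naive cKO 2. Between genotypes, 1 member (*Scg2*) was called by DESeq2 in neurons and 1 (*Scg2*) without the filter on the operated sham side. For the lists, the 15 calls after injury in cKO mice became 8 with sex as covariate, 9 without the mismatched libraries, and 9 to 16 with single libraries left out; the 17 in control mice became 12 to 19. In neurons DESeq2 called 1. On the operated sham side there were 6 without the filter, 3 by DESeq2 and 0 to 1 with single libraries left out (*Rab3b* without ipsilateral cKO 2). For the sham side contrast there were 5 without the filter (*Syt6*, *Rab27b*, *Rph3a*, *Vgf*, *Pcsk1*) and 4 by DESeq2 (all but *Pcsk1*). For the genotype by side interaction there was 1 without the filter (*Rab3b*). Of all genes, the unfiltered fits called 11.6% after injury in control mice, 10.2% in cKO mice, 1.79% on the operated sham side, 1.09% between sham sides and 0.411% for the interaction with side. DESeq2 called 19.7%, 15.8%, 0.821% and 0.893% in the first 4 of these and 0.783% in neurons. Sham fits without a library or mouse leave an arm with 1 sample, assumed to vary like the other groups. With sex as covariate the injured cKO group rests on its only female library, since no other naive or injured group held males by transcripts. The cause of these shifts was not tested.

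No called difference changed sign under any alternative; 69 of 1545 single-gene values had another sign, none of them called. The replicate block, which pairs animals only for the sham sides, left 1 member called over all comparisons (*Vamp2* after injury in control, 0.23, adjusted p 0.0379) and changed no member's call. Elsewhere same-numbered libraries came from different mice and correlated at -0.4184 to 0.4117 in ganglia and 0.0642 to 0.2210 in neurons. The sides of a sham mouse gave only -0.1588 and 0.2291, so such values cannot tell whether the numbers pair samples. With the sides of the cKO sham mice crossed, 0 members and 1 list gene (*Vgf*) were called.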
